A study of Mus musculus with 2 samples.

Results

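Chemokine ligand genes were examined on 2 whole-transcript arrays of cells sorted as ILCregs. Members were the array features whose only gene symbol in the platform annotation began with Ccl, Cxcl or Xcl and a number, or was Cx3cl1, Pf4 or Ppbp. The rule found 37 features, 1 for each of 37 genes, among 61344 features in all and 28573 with exactly 1 symbol. They comprised 20 CC ligands, 15 CXC ligands, among which Pf4 and Ppbp were counted by their known structure, and 2 others, Xcl1 and Cx3cl1.

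Chemokines are small secreted proteins that guide leukocytes along gradients by binding G-protein-coupled receptors. They are grouped by the spacing of their first cysteines, which are adjacent in CC and separated by a single residue in CXC chemokines. In the intestine, some are made constantly by epithelium and stroma and place lymphocytes in the mucosa, and others are induced in macrophages, stroma and epithelium by microbial products and cytokines such as interleukin 1, TNF and interferon gamma.

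The only group, ILCreg, came from the small intestine. The mice, of strain C57BL/6 and 8 weeks of age, were IL-10-GFP knockin, so that green fluorescent protein marks the locus of interleukin 10, and both arrays share this genotype; the stated purity of the sort was over 95%. It holds replicate 1 and replicate 2, and the labels do not say whether separate mice, pools or sorts gave them, so their spread may be technical. No other cell population was analysed here, so groups could not be tested against each other and no p-values are printed. The values are the authors' signals, taken as log2, which is not stated.

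Each value was read against a threshold, the 95th percentile on the same array of 1678 olfactory, vomeronasal and taste receptor genes, which stand for signal without transcript. The threshold was 6.74 for replicate 1 and 6.19 for replicate 2, and "above the threshold" means above it on both. A gene under the threshold could not be told from such signal and may still be expressed. Probes differ in affinity, so the signals of different genes do not order them by abundance, and each gene is set only against the threshold. Medians of gene sets are given as description and do not order the sets or cell types by abundance. In bulk RNA, fewer cells of a type and less RNA per cell cannot be told apart.

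The labelled cell type was checked against markers of innate lymphoid cells, of which 6 of 8 measured lay above the threshold, among them Il7r, Id2, Ptprc and Il10, while Thy1 (5.56 and 5.72) and Klrg1 (5.90 and 5.41) did not. Other cell types had signal too. All 9 macrophage markers measured, all 8 stromal and all 9 epithelial ones were above the threshold, with list medians of 9.86, 13.31 and 11.97, as were 5 of 8 T cell markers, Cd3e (9.68 and 9.90) included. So were 5 of 7 B and plasma cell markers, with Jchain at 17.47 and 18.11, and 4 of 8 endothelial ones. Dendritic cell markers had 3 of 8 above it, with H2-Aa at 14.01 and 14.28, and mast cell and granulocyte markers 2 of 9. Among all named genes 31.7% were above it, so the dendritic cell, mast cell and granulocyte counts are no result about those cells. The T cell markers Cd8a and Cd247 and the dendritic cell markers Flt3, Zbtb46, Siglech and Xcr1 were above it on neither array. Likewise above it on neither array were the B and plasma cell markers Pax5 and Tnfrsf17 and the endothelial markers Kdr, Tie1 and Prox1. The cell that gave a chemokine transcript cannot be told from these arrays, and the part of these other cells in the signals below was not tested.

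Of the 37 chemokine ligand features, 21 (56.8%) lay above the threshold on both arrays. Another 3 exceeded it on 1 array, and 13 did so on neither. Among all 28279 named genes the share on both arrays was 31.7%, among 16249 protein-coding genes outside the receptor families 39.0%, and among the receptor genes themselves 2.44%. The median signal of the members was 7.56, against 5.43 for all named genes, which include noncoding ones, and 4.47 for the receptor genes. The CC ligands had 11 of 20 above the threshold, the CXC ligands 10 of 15, and Xcl1 and Cx3cl1 were not among them. The gene table lists 2 members, Cxcl11 and Ccl19-ps1, as pseudogenes, and neither was above the threshold, so all 21 were among the 35 protein-coding members.

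**Figure D1:**
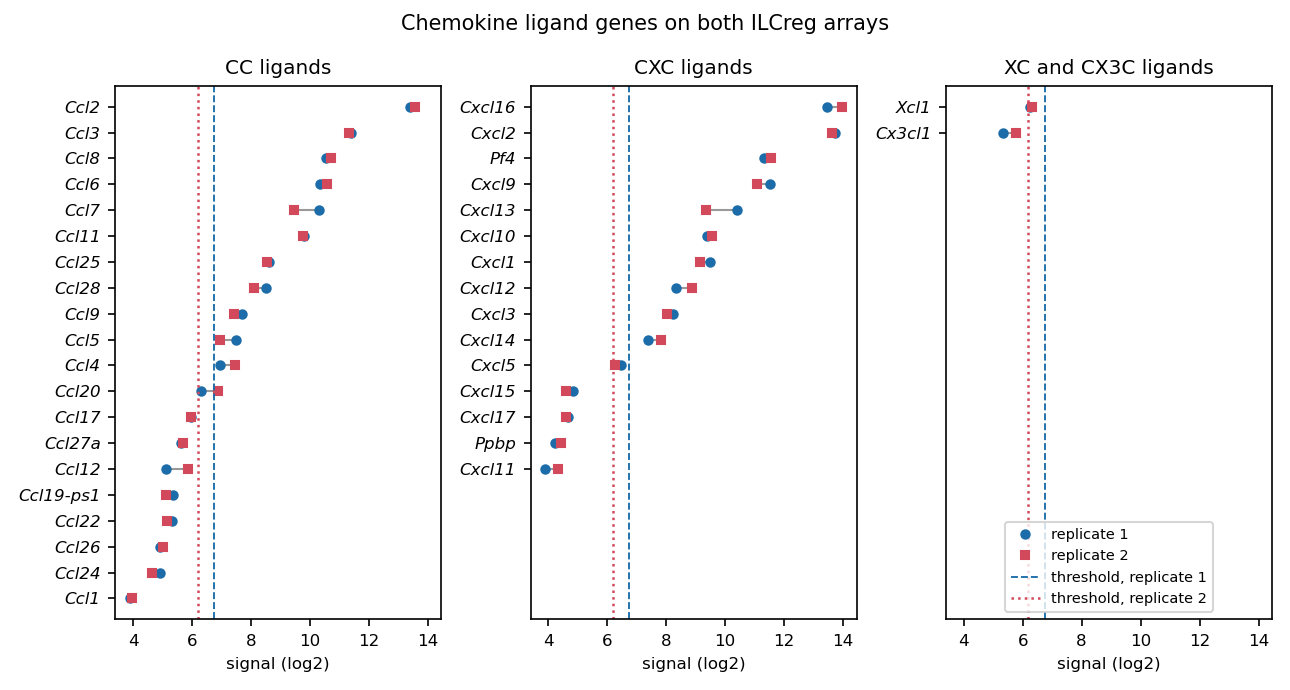
Signal (log2, horizontal axis) of each chemokine ligand gene on the array of replicate 1 (circles) and of replicate 2 (squares), in panels for CC, CXC and XC or CX3C ligands, with the threshold of each array as a dashed and a dotted line. Of 20 CC genes 11 lie right of both lines, of 15 CXC genes 10, and of the 2 others 0; the downward order is for display and is no order of abundance.

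**Figure D2:**
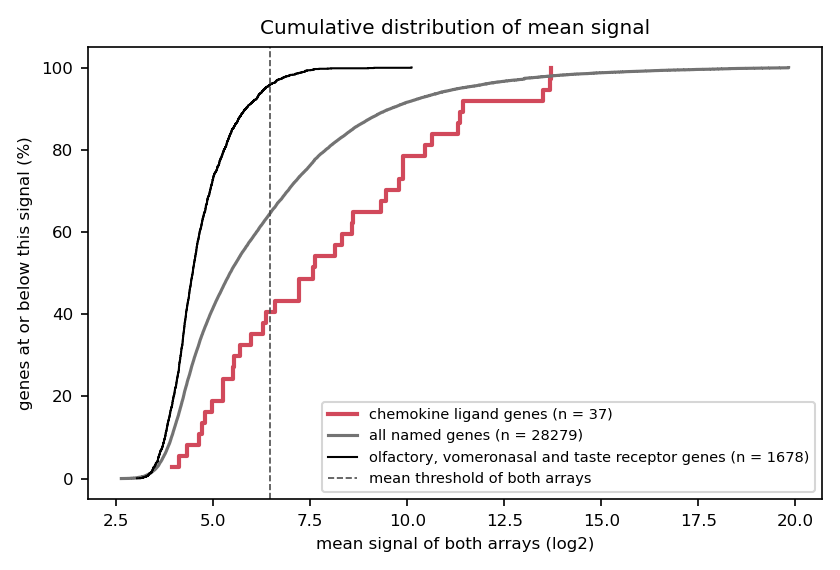
Cumulative share of genes (%, vertical axis) at or below a mean signal of both arrays (log2, horizontal axis) for the 37 chemokine ligand genes, all 28279 named genes and the 1678 receptor genes, with the mean threshold dashed. The chemokine curve lies to the right, with a median of 7.56 against 5.43 and 4.47, and is spread on both sides of the threshold.

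Among the ligands listed for CXCR2, the receptor that draws neutrophils, 3 of 5 were above the threshold. The ligand lists here and below are small, and their counts, beside 31.7% of all named genes, are given as description only. Cxcl2 had signals of 13.73 and 13.62, Cxcl1 had 9.50 and 9.15, and Cxcl3 had 8.24 and 8.03. These genes encode closely related neutrophil attractants induced by NF-kB, and each was above the threshold by at least 1.49 on either array. Cxcl5, a neutrophil attractant made by epithelial cells, stood at 6.46 and 6.25, below the threshold of replicate 1 and 0.06 above that of replicate 2. Ppbp, whose product is stored in platelets, stood at 4.24 and 4.42, well under the threshold on both.

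These genes are neighbours. In the order of the gene table, a run of 7 members without another protein-coding gene between them reads Cxcl5, Ppbp, Pf4, Cxcl3, Cxcl15, Cxcl1 and Cxcl2, where up to 5 intervening protein-coding genes were allowed. In this run 4 were above the threshold, in 2 adjacent pairs, Pf4 with Cxcl3 and Cxcl1 with Cxcl2. Cxcl15, a neutrophil attractant best known from the lung, had 4.84 and 4.58 between Cxcl3 and Cxcl1. Pf4, platelet factor 4, had 11.32 and 11.56 beside Ppbp at 4.24 and 4.42.

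The promoters of 6 of these 7 genes in the RefSeq table (250 bases before to 50 after the start) are printed to show letters that Cxcl1, Cxcl2 and Cxcl3 share and that the other 3, among them Pf4 with signal above the threshold, lack. Capitals mark matches to the NF-kB consensus motif (the longer runs) and to TATAAA (the shorter ones), both searched on both strands.
Cxcl1 (GRCm38.p6, chr5:90890995-90891294, plus strand): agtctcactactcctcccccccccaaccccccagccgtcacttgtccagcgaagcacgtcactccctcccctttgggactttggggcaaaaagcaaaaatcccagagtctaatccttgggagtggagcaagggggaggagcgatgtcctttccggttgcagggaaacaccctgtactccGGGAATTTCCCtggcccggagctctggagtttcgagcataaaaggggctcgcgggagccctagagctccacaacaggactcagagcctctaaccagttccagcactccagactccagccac
Cxcl2 (GRCm38.p6, chr5:90903649-90903948, plus strand): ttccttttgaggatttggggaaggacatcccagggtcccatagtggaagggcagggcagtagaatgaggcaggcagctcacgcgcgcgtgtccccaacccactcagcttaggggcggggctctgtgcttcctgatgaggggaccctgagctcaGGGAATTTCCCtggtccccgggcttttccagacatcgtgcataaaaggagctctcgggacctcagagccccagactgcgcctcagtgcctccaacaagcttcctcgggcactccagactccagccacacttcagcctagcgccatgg
Cxcl3 (GRCm38.p6, chr5:90785851-90786150, plus strand): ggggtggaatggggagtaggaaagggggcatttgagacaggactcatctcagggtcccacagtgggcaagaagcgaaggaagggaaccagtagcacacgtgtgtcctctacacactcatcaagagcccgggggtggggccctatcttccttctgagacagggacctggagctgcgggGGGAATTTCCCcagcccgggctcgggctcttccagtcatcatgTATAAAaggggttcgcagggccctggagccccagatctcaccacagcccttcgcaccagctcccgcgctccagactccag
Ppbp (GRCm38.p6, chr5:90768268-90768567, plus strand): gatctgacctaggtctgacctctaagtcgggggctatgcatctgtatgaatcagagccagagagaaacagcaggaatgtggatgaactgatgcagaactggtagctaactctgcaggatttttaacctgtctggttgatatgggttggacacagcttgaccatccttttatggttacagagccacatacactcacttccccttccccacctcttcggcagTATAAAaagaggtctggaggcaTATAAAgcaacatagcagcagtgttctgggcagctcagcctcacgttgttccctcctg
Cxcl15 (GRCm38.p6, chr5:90794284-90794583, plus strand): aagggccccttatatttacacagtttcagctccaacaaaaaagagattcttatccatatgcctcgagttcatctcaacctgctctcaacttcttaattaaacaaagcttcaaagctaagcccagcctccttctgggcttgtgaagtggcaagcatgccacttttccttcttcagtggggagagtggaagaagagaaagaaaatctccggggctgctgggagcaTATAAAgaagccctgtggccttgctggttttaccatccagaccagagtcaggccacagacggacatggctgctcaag
Pf4 (GRCm38.p6, chr5:90772185-90772484, plus strand): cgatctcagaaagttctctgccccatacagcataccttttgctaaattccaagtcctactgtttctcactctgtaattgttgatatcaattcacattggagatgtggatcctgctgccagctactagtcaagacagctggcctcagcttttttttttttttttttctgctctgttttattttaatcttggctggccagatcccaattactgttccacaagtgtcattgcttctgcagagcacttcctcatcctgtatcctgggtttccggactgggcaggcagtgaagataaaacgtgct

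Cxcl1, Cxcl2 and Cxcl3 held the same 11 letters, GGGAATTTCCC, starting 71, 97 and 73 bases before the start, each read as 2 overlapping matches to the NF-kB consensus. On either strand, 14 of 32851 RefSeq promoters (0.0426%) held this stretch, and these 3 were the only promoters of members among them. The stretch was taken from the Cxcl1 promoter before it was counted, so its presence there was fixed and the share tests nothing. Whether related sequence of these neighbouring genes accounts for the other matches was not tested. The promoters of Ppbp, Cxcl15 and Pf4 held no match to the consensus in this window. TATAAA lay 30 bases before the start of Cxcl3, 30 and 8 before that of Ppbp and 27 before that of Cxcl15, and thus in promoters of genes on both sides of the threshold.

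In all, 25 of 37 members matched the promoter table, with 28 promoters. The NF-kB consensus was found in promoters of 5 of 15 members above the threshold (Cxcl1, Cxcl2, Cxcl3, Cxcl10 and Ccl9) and 3 of 10 members not above it (Ccl1, Ccl20 and Ccl27a), against 8.46% of all promoters in the table. TATAAA was found in 6 of 15 and 4 of 10, against 13.6%. The other motif searched, TTCNNNGAA, was found in 1 of 15 (Cxcl14) and 1 of 10 (Ccl17), against 8.30%. No match of one motif overlapped a match of another. A match describes letters and is no evidence of binding, and the motifs were chosen after the signals had been seen.

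Of the CXCR3 ligands, which interferons induce and which attract activated T cells and natural killer cells, 2 of 3 were above the threshold. Cxcl9 had signals of 11.51 and 11.08, and Cxcl10 had 9.37 and 9.54. Cxcl11 stood at 3.90 and 4.32, below the threshold on both arrays by at least 1.87. These 3 genes are neighbours in the order Cxcl9, Cxcl10, Cxcl11, and Cxcl11 is listed as a transcribed pseudogene in GRCm38.p6, the assembly of the C57BL/6J strain. Interferon gamma, the inducer encoded by Ifng, had 7.67 and 6.92, and the interferon-induced factor gene Irf1 had 9.53 and 9.48, all above the threshold.

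The promoters of both ligands above the threshold are printed with the same marks, because only one of them held the NF-kB motif.
Cxcl10 (GRCm38.p6, chr5:92348840-92349139, minus strand): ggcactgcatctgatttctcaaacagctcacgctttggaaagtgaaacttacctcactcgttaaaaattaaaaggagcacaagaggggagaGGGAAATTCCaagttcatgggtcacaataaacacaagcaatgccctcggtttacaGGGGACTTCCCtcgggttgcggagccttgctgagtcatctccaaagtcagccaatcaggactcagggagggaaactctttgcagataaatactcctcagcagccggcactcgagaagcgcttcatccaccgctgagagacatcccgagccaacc
Cxcl9 (GRCm38.p6, chr5:92328030-92328329, minus strand): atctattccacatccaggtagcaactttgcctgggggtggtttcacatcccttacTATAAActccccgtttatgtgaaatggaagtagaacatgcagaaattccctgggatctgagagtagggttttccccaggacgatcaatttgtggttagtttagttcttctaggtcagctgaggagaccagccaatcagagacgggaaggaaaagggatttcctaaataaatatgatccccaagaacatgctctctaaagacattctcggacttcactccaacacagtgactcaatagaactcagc

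In the Cxcl10 promoter the motif was found in 2 places, 159 and 104 bases before the start, the second as 2 overlapping matches. In that of Cxcl9 the only capitals are TATAAA, 195 bases before the start.

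The list of CCR2 ligands holds the monocyte chemoattractant genes Ccl2, Ccl7, Ccl8 and Ccl12, of which mouse CCL8 is also known as a ligand of CCR8. Here 3 of 4 were above the threshold. Ccl2 had signals of 13.39 and 13.58, Ccl8 had 10.55 and 10.73, and Ccl7 had 10.30 and 9.46. Ccl12, a monocyte attractant of mice, stood at 5.12 and 5.87, below the threshold on both arrays. Ccl2, Ccl7, Ccl11, Ccl12, Ccl8 and Ccl1 form a run of 6 neighbours, of which 4 were above the threshold. Ccl11, the eosinophil attractant eotaxin, had 9.79 and 9.77 in that run, and Ccl1, a ligand of CCR8, had 3.91 and 3.97 at its end.

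All 5 members of another run, in the order Ccl5, Ccl9, Ccl6, Ccl3 and Ccl4, were above the threshold, and they form the list of inflammatory CC ligands. Ccl3, an inflammatory attractant of macrophages and T cells, had signals of 11.40 and 11.32. Its relative Ccl4 had 6.94 and 7.47, only 0.20 above the threshold of replicate 1. Ccl3 and Ccl4 overlap in the gene table, and whether their signals are separate was not tested. Ccl5, which T cells and natural killer cells secrete, had 7.49 and 6.95, at least 0.74 above the threshold. Of the rodent ligands made by myeloid cells, Ccl6 had 10.35 and 10.58, and Ccl9 had 7.70 and 7.43. With the stricter 99th percentile of the receptor genes, Ccl4, Ccl5 and Ccl9 were no longer above the threshold on both arrays.

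Of the 3 ligands listed for CCR3, only Ccl11 was above the threshold, and the list does not hold every ligand of this receptor. Beside Ccl11, Ccl24 had signals of 4.90 and 4.64 and Ccl26 had 4.90 and 5.03, and they form a pair of neighbours. Their products, too, attract eosinophils. Of the ligands listed for CCR4, CCR8 and CCR10, which guide T cells to skin and to sites of allergy, 0 of 4 measured (Ccl1, Ccl17, Ccl22 and Ccl27a) were above the threshold. Among all named genes the share was 31.7%, so a count of 0 in 4 is no result about these ligands. Ccl8 and Ccl28, also ligands of CCR8 and CCR10, stand in other lists, and both were above it. Ccl17 had 5.95 and 5.97, Ccl22 had 5.31 and 5.16, and the skin chemokine gene Ccl27a had 5.64 and 5.71. Ccl22, Cx3cl1 and Ccl17 are a run of 3 neighbours, none above the threshold. Ccl19-ps1, a pseudogene of the lymph node chemokine Ccl19, had 5.36 and 5.13 and neighbours Ccl27a with 2 protein-coding genes between them.

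**Figure D3:**
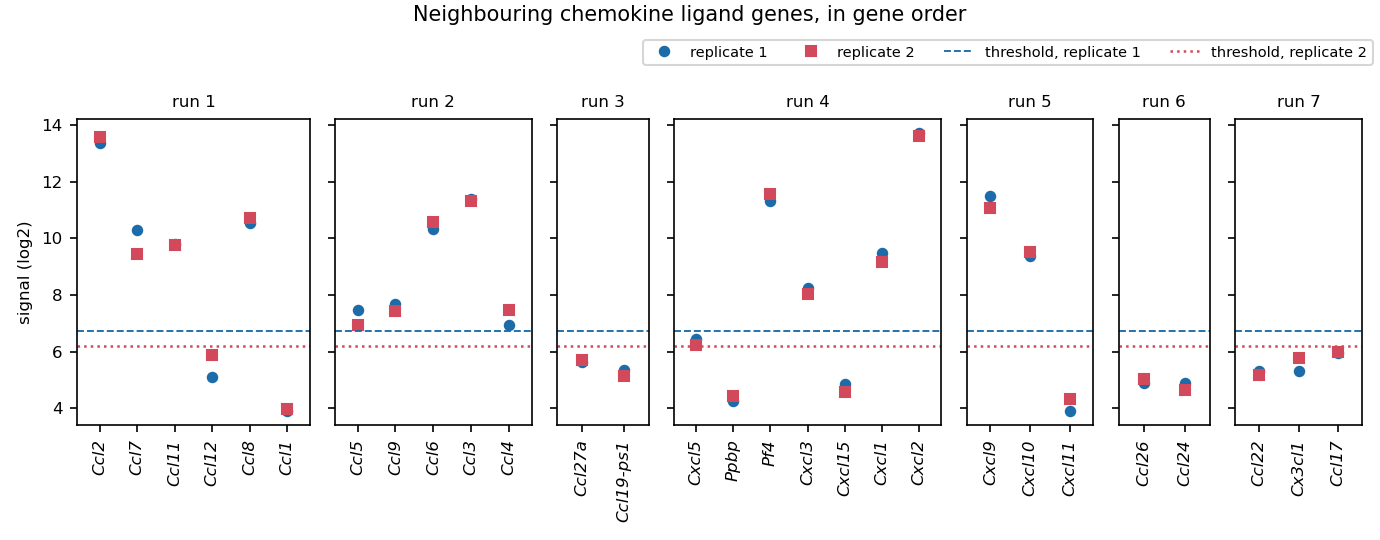
Signal (log2, vertical axis) of 28 chemokine ligand genes in 7 runs of neighbouring members, in the order of the GRCm38.p6 gene table along the horizontal axis, on the array of replicate 1 (circles) and of replicate 2 (squares), with the thresholds as lines. All 5 genes of run 2 lie above both lines, none of those of runs 3, 6 and 7 do, and runs 1, 4 and 5 hold genes on both sides.

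Over all runs, 15 of 28 members were above the threshold on both arrays, against 6 of the 9 members with no neighbour. In 4 of the 7 runs the members lay on the same side of the threshold, all above it in 1 and none above it in 3. The probes of related genes may share signal where their sequences are alike, which was not tested.

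Of the mucosal ligands, 4 of 6 were above the threshold. Cxcl16, a membrane-bound ligand that can be shed, had signals of 13.46 and 13.95. Ccl25, an epithelial ligand that draws lymphocytes to the small intestine, had 8.62 and 8.54, and Ccl28, which draws IgA-producing plasma cells to mucosae, had 8.51 and 8.12. Cxcl14, a chemokine made constantly by epithelia and stroma, had 7.39 and 7.83. The proteases that cut the membrane-bound ligands, encoded by Adam10 (10.20 and 10.83) and Adam17 (9.10 and 9.26), and the chemokine-trimming protease gene Dpp4 (7.83 and 7.48) were above the threshold as well. Ccl20, an epithelial ligand that attracts cells bearing CCR6, had 6.32 and 6.88, below the threshold of replicate 1 and above that of replicate 2. Cxcl17, a mucosal chemokine, had 4.67 and 4.59, below it on both. Epithelial markers, all 9 of 9 above the threshold with array medians of 12.08 and 11.86, were present beside the epithelial ligands, and their part was not tested.

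Both lymphoid tissue ligands measured were above the threshold. Cxcl12, a stromal chemokine that retains leukocytes, had signals of 8.32 and 8.86. Cxcl13, which draws B cells into follicles, had 10.40 and 9.36, the widest gap between the arrays among the members. Stromal markers were above the threshold in 8 of 8 cases, with array medians of 12.89 and 13.98, and their part in these signals was not tested. Ccl19, Ccl21a, Ccl21b, Ccl21c and Ccl27b have no feature with a single symbol and were not analysed here.

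Pf4 was above the threshold without other platelet genes. Its signals of 11.32 and 11.56 lay at least 4.58 above the threshold, whereas Ppbp and all 6 platelet and megakaryocyte markers measured, among them Itga2b (5.15 and 5.20) and Gp9 (5.58 and 5.49), were not above it on either array. The list median of those markers was 4.55. Macrophage markers were above the threshold in 9 of 9 cases, with array medians of 9.53 and 10.19, among them Lyz2 (14.76 and 14.66) and C1qb (12.20 and 12.55).

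The remaining ligands lay near or under the threshold. Xcl1, which natural killer cells and T cells secrete to attract cross-presenting dendritic cells, had signals of 6.24 and 6.31, under the threshold of replicate 1 by 0.50 and above that of replicate 2 by 0.12. Cx3cl1, or fractalkine, a membrane-bound adhesive ligand of epithelium and endothelium, had 5.32 and 5.76, under both. Natural killer cell and ILC1 markers were above the threshold in 2 of 8 cases, against 31.7% of all named genes. They were the granzyme genes Gzmb (13.40 and 13.37) and Gzma (11.66 and 11.44).

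Of the 17 chemokine receptor genes measured, 6 were above the threshold on both arrays and Ccr9 on 1. Among all named genes the share on both arrays was 31.7%, and among protein-coding genes outside the olfactory, vomeronasal and taste receptors 39.0%. The count of 6 in 17 lies near these shares and is no result about the receptors. Cxcr4, the receptor for CXCL12, had signals of 11.18 and 12.22 and Cx3cr1, that for fractalkine, 9.64 and 9.44. Ccr7, a lymph node homing receptor gene, had 9.33 and 8.90, Ccr2 had 8.34 and 8.38, Ccr1 had 7.96 and 8.16, and Ccr10 had 7.72 and 7.40. Monocytes, macrophages, dendritic cells and lymphocytes are among the cells known to carry these 6 receptors.

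The gut homing receptor gene Ccr9 had 5.96 and 6.58, above the threshold of replicate 2 alone. The mean signals of the 10 receptors above it on neither array were 5.90 for Cxcr6, 5.71 for Ccr3, 5.69 for Cxcr3, 4.70 for Cxcr2, 4.61 for Cxcr5, 4.39 for Xcr1, 4.27 for Ccr6, 4.08 for Ccr4, 3.92 for Ccr8 and 3.21 for Cxcr1. They include receptors of neutrophils, B cells, eosinophils and polarised T cells. Of the atypical receptors, which take up chemokines without classical signalling, 0 of 3 measured were above the threshold on both arrays. Their mean signals were 4.97 for Ackr1, 4.96 for Ackr4 and 6.49 for Ccrl2. Beside the share of 31.7% among all named genes, a count of 0 in 3 is no result about them. Ackr2 and Ackr3 were not analysed here.

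Ligands were set beside a known receptor in 27 pairs with 15 receptors, written from general knowledge after the signals had been seen. Both genes were above the threshold in 6 pairs, Cxcl12 with Cxcr4, Ccl2 and Ccl7 with Ccr2, Ccl3 and Ccl5 with Ccr1, and Ccl28 with Ccr10. In 9 pairs the ligand was above it and the receptor was not. These were Cxcl1, Cxcl2 and Cxcl3 with Cxcr2, Cxcl9 and Cxcl10 with Cxcr3, Cxcl13 with Cxcr5, Cxcl16 with Cxcr6, Ccl11 with Ccr3 and Ccl25 with Ccr9. In 3 pairs the receptor alone was above it, Cx3cr1 with Cx3cl1, Ccr2 with Ccl12 and Ccr10 with Ccl27a. In the other 9 neither was. Pairs that share a receptor are not independent, and a ligand can act on cells that were not sorted.

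**Figure D4:**
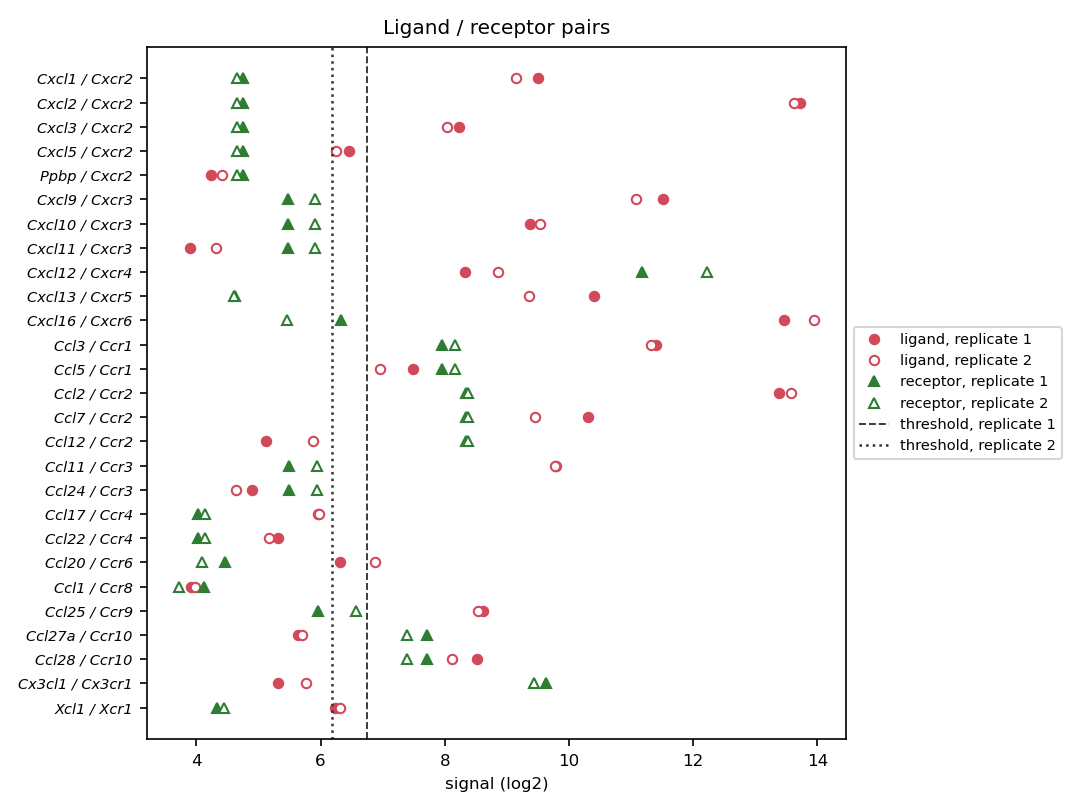
Signal (log2, horizontal axis) of ligand (circles) and receptor (triangles) for 27 pairs, filled for replicate 1 and open for replicate 2, with the threshold of each array as a dashed and a dotted line. In 9 pairs the ligand alone lies right of the lines on both arrays, in 3 the receptor alone, in 6 both and in 9 neither; each gene is read against the lines, not against its partner.

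Of the genes listed as inducers of chemokine transcription, which include feedback inhibitors, 9 of 11 measured were above the threshold. The interleukin genes Il1b (14.69 and 15.06) and Il6 (12.18 and 12.49) belonged to them, as did Tnf, and so did the NF-kB subunit gene Rel (14.21 and 14.68) and 2 that act the other way, the NF-kB inhibitor genes Nfkbia (14.21 and 14.30) and Tnfaip3 (12.64 and 13.47). Il17a, which encodes a cytokine that induces neutrophil attractants, had 4.01 and 3.98, and the factor gene Cebpb 5.80 and 5.64, both under the threshold. The genes for regulators of chemokine mRNA decay were all above it, 5 of 5, among them Zfp36 (13.35 and 13.15) and Zfp36l1 (14.95 and 15.07), which promote decay. Nfkb1 and Rela were not analysed here.

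After the median difference of all named genes, -0.05, was subtracted, no member differed by more than 2-fold (1 on the log2 scale) between the arrays. Without that step 1 member did, Cxcl13, with a difference of -1.04. The centred count is 0 of the 21 members above the threshold, against 373 of 8971 named genes above it (4.16%), a share at which a count of 0 in 21 is no result about the members. The largest differences of replicate 2 minus replicate 1 were -0.99 for Cxcl13 and -0.79 for Ccl7 among those above the threshold and 0.80 for Ccl12 among those below. Of the 21, 10 had the higher centred value in replicate 2 and 11 in replicate 1. Their median size of difference was 0.28, as for all named genes above the threshold (0.28), and their pooled SD was 0.30, against 0.34.

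**Figure D5:**
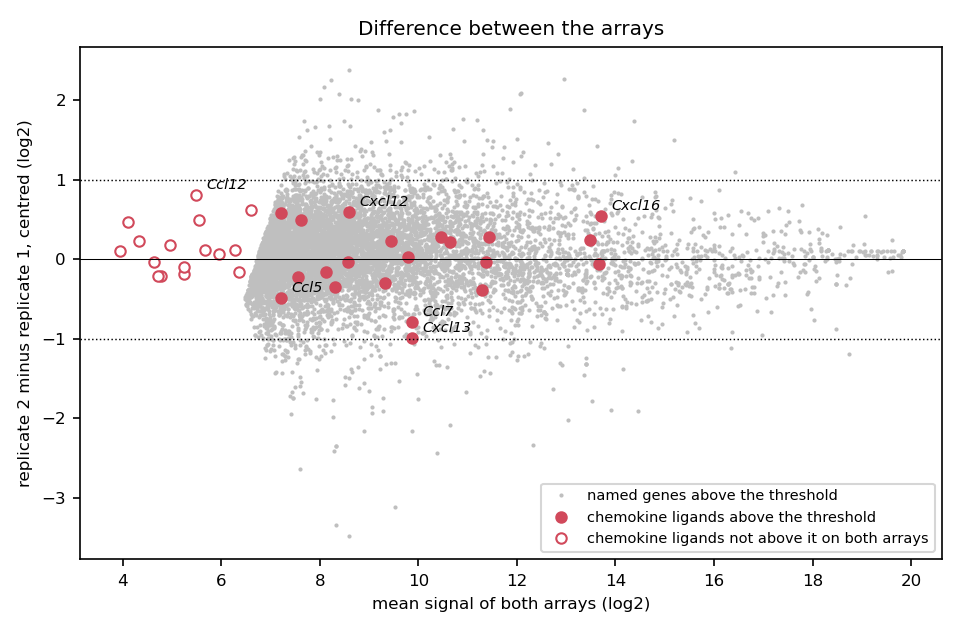
Centred difference of replicate 2 minus replicate 1 (log2, vertical axis) against the mean signal of both arrays (log2, horizontal axis), for chemokine ligand genes above the threshold (filled) and not above it on both arrays (open) and for named genes above the threshold (grey). All 37 chemokine ligand genes lie between the dotted lines at 1 and -1, with Cxcl13 (-0.99) closest to them.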

How the data were processed

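RNA of the ILCreg group was amplified and hybridised to whole-transcript arrays, per the labels' protocols. The authors deposited 1 value per feature and array, between 2.10 and 19.86, taken as log2 signal from its range; the log base, background correction, scaling and build: not given in the sources used here. MAS5 is named in the submitters' processing notes, with no version or role. Features were named through the platform annotation, with 28573 carrying 1 symbol, 2014 several and 30757 none. Symbols were updated through Entrez identifiers of the GRCm38.p6 gene table, in which 21193 features had 1 match; all 37 members matched it and none changed symbol. A gene with several features was read from the one with the highest mean signal. No member was within 0.001 of the highest value of an array.

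Thresholds, counts and differences were computed in Python 3.11.15 with numpy 2.4.6 and pandas 2.3.3, and the calling step was tested on simulated data. The genes planted there as expressed lay well above the threshold, so the simulation says nothing of calls near it. With 1 group of 2 arrays no test was made, and the number of arrays limits precision. The alternatives were the 90th and 99th percentile, a reference of keratin-associated protein and Rhox genes, quantile normalization, 1 feature per gene and leaving out either array. The members, lists and threshold were chosen with earlier results of these data known. All members are named; of other lists, values are given for at most the 4 highest and the lowest genes in mean signal, and for every receptor. Klrg1, Ifng, Irf1, Il6 and Cebpb fall outside this rule and were named after their values were seen. Cd8a, Cd247, Flt3, Zbtb46, Siglech, Pax5, Tnfrsf17, Kdr, Tie1 and Prox1 were likewise named after their values were seen, without printing the values.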

Additional observations from a re-analysis of the deposited data

Results flagged for a closer look

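Features that carry several gene symbols entered none of the results. Of these, 12 had at least 1 symbol of a chemokine ligand, and 5 of the 12 exceeded the threshold on both arrays, with a highest mean signal of 7.39. The 12 features held 10 distinct pairs of values and the 5 held 3, since some features had identical values on both arrays. They drew attention because they are signal in data left unused, and no gene is named for them.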

How the results depend on the processing

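No paired analysis was possible because there is 1 group. The count of 21 members above the threshold was 24 with the 90th percentile, where Ccl20, Cxcl5 and Xcl1 were added, and 17 with the 99th, where Ccl4, Ccl5, Ccl9 and Cxcl14 were lost; all named genes gave 39.0% and 19.8% there. It was 21 under quantile normalization and also when Rhox and keratin-associated protein genes set the threshold, where all named genes gave 31.7% and 34.8%. Having 1 feature per gene changes nothing, since each member has 1. Without replicate 1 or 2 the count was 24 or 21, where a gene had to exceed the threshold of the remaining array alone. All named genes gave 38.6% and 32.3% there. The median signal of the members, 7.56, was 7.47 to 7.49 without either array. After the data were seen, members without the 2 pseudogenes gave a median of 7.61, and members with the 12 features of several symbols gave 6.68, with 26 of 49 above the threshold. The median difference between the arrays moved from 0.07 to 0.08 under quantile normalization and to -0.044 with those 12 features, so it has no settled sign. The mean signal of each of the 37 members moved by less than its replicate SD, at most 0.015, under quantile normalization. Signal over background limits the calls near the threshold of replicate 1, which Ccl4 exceeded by 0.20 and Cxcl5 missed by 0.28.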
